A study of Mus musculus with 6 samples.

Results

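The mitosis and cytokinesis genes described here are 36 genes whose products carry a cell into mitosis, build and check the spindle, and divide the cell. A gene was taken where a probeset of the array carried its symbol and no other, and where there were several, the probeset brightest on average over the 6 arrays stood for the gene. Of the 36 genes, 35 were measured among 19938 genes in all. The cyclin gene Ccnb1 had no such probeset and was not analysed here. Of the 35, 27 passed an intensity filter (over 7 on the log2 scale on 3 arrays or more) and were tested among 11024 genes. No member passed the filter through the arrays of only 1 genotype, and 20 members were above 7 on all 6 arrays.

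RNA came from perigonadal visceral fat, called viWAT, of obese mice fed a high-fat diet (HFD) for 8 weeks from 6 weeks of age. Hmox1f/f PdgfraCre mice carry a floxed Hmox1 gene, which encodes the heme-degrading enzyme heme oxygenase-1 (HO-1), and Cre under the promoter of Pdgfra, a receptor gene of adipose precursors (APs). Hmox1f/f mice carry the same floxed gene without Cre, so an effect of Cre itself cannot be told apart from that of losing Hmox1. Each genotype had 3 arrays, Hmox1f/f PdgfraCre 1 to 3 and Hmox1f/f 4 to 6, and each array was 1 separate pool of 2 mice. The labels name the material both as AP cells and as viWAT. Genes of mature adipocytes were bright on all arrays (log2 10.16 to 13.73). The values are therefore read as those of fat tissue and not of purified APs. Nothing in the labels gives a litter or a day. P-values therefore measure the spread between these pools, and with so few arrays the precision of each value is limited.

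In a dividing cell, cyclins bound to the kinase Cdk1 start mitosis, and condensins and topoisomerase fold the chromosomes. Aurora and polo-like kinases and kinesin motors build the spindle, the checkpoint holds the cell until every kinetochore is attached, and the anaphase-promoting complex then destroys cyclin and securin. The central spindle and a contractile ring complete cytokinesis. Most of these genes are transcribed late in the cycle and are silent in resting cells. In fat, mature adipocytes do not usually divide, whereas precursor, endothelial and immune cells can.

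Late cell cycle promoters often hold CCAAT boxes, bound by NF-Y, and a cell cycle genes homology region (CHR) of the letters TTTGAA, bound by complexes that also hold MuvB proteins. RefSeq windows (GRCm38.p6), from 250 bases before to 50 bases after a gene's start, matched 29 of the 36 members, and Foxm1, Ccna2, Smc4, Tpx2, Dlgap5, Aurkb and Kif20a had no entry. The stretches shown are the 120 bases before the start of 1 kinase, 1 cyclin, 1 motor and 2 genes that work with the anaphase-promoting complex, as examples of how the motifs lie in genes of different roles, written along the gene's strand. Capitals mark TTTGAA and CCAAT on either strand, so that a reverse match reads TTCAAA or ATTGG.
Cdk1 (chr10:69352913-69353032, minus strand): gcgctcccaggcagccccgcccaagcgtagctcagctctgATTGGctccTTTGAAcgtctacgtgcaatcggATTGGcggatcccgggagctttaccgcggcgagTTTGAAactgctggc
Ccnb2 (chr9:70421555-70421674, minus strand): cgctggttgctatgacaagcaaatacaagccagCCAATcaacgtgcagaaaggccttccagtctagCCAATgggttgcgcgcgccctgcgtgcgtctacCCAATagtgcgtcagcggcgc
Kif11 (chr19:37376262-37376381, plus strand): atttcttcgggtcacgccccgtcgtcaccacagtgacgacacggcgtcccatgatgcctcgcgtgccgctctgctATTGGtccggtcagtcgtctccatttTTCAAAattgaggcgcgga
Cdc20 (chr4:118437344-118437463, minus strand): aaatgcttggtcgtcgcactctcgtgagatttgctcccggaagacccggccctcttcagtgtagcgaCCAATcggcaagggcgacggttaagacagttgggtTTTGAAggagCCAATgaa
Ube2c (chr2:164769809-164769928, plus strand): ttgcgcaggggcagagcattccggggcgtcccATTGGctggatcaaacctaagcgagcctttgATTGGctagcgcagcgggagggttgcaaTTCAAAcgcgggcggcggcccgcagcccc

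The TTTGAA letters began 71 and 15 bases before the start in Cdk1, 18 before it in Cdc20, and on the reverse strand 29 before it in Ube2c and 19 before it in Kif11. In Ccnb2 they lay outside the printed stretch, 167 bases before the start and at base 4 past it. Ccnb2 had CCAAT at 87, 54 and 21 bases before the start, and Cdk1 had it in reverse at 80 and 48. Over the whole windows 22 of the 29 members (75.9%) held TTTGAA, against 20.2% of all 27025 genes with a window and 43.1% of 102 other mitosis genes. CCAAT was found in 79.3% of the members, 41.1% of all genes and 58.8% of the other mitosis genes, and both motifs in 69.0%, 7.97% and 30.4% in the same order. A pair of CCAAT boxes 32 to 34 bases apart was found in 6 members (20.7%), in 0.973% of all genes and in 6.86% of the other mitosis genes. The 2 motifs overlapped in 1 member. A match of letters is a description of the window and not a measured site.

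The comparison of genotypes asks whether proliferation genes differ in obese fat when APs lack HO-1. Across the 27 tested members, the value was lower with Cre for 25 and higher for 2, with a median log2 difference (Hmox1f/f PdgfraCre minus Hmox1f/f) of -0.29. Over all genes tested 57.4% were lower, with a median of -0.03. In limma no member had an adjusted p under 0.05, and neither did any other gene (0% called). The smallest adjusted p of a member was 0.266, shared with the smallest of any gene. At an unadjusted p under 0.05, 12 members were lower and 0 higher, against 12.8% of all genes tested lower and 3.03% higher. The 3 arrays of each genotype did not overlap for 13 of the 27 members, all lower with Cre, against 21.2% of all genes tested lower and 5.82% higher. Members without the filter gave a like picture, with 33 of 35 lower against 49.3% of all 19938 genes, 15 not overlapping against 13.0%, and 14 lower at an unadjusted p under 0.05 against 7.50%. Differences ran from -0.49 for Plk1 to 0.12 for Smc2, and no tested member reached a 1.5-fold difference. In bulk RNA, fewer dividing cells and less transcript per dividing cell cannot be told apart.

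**Figure D1:**
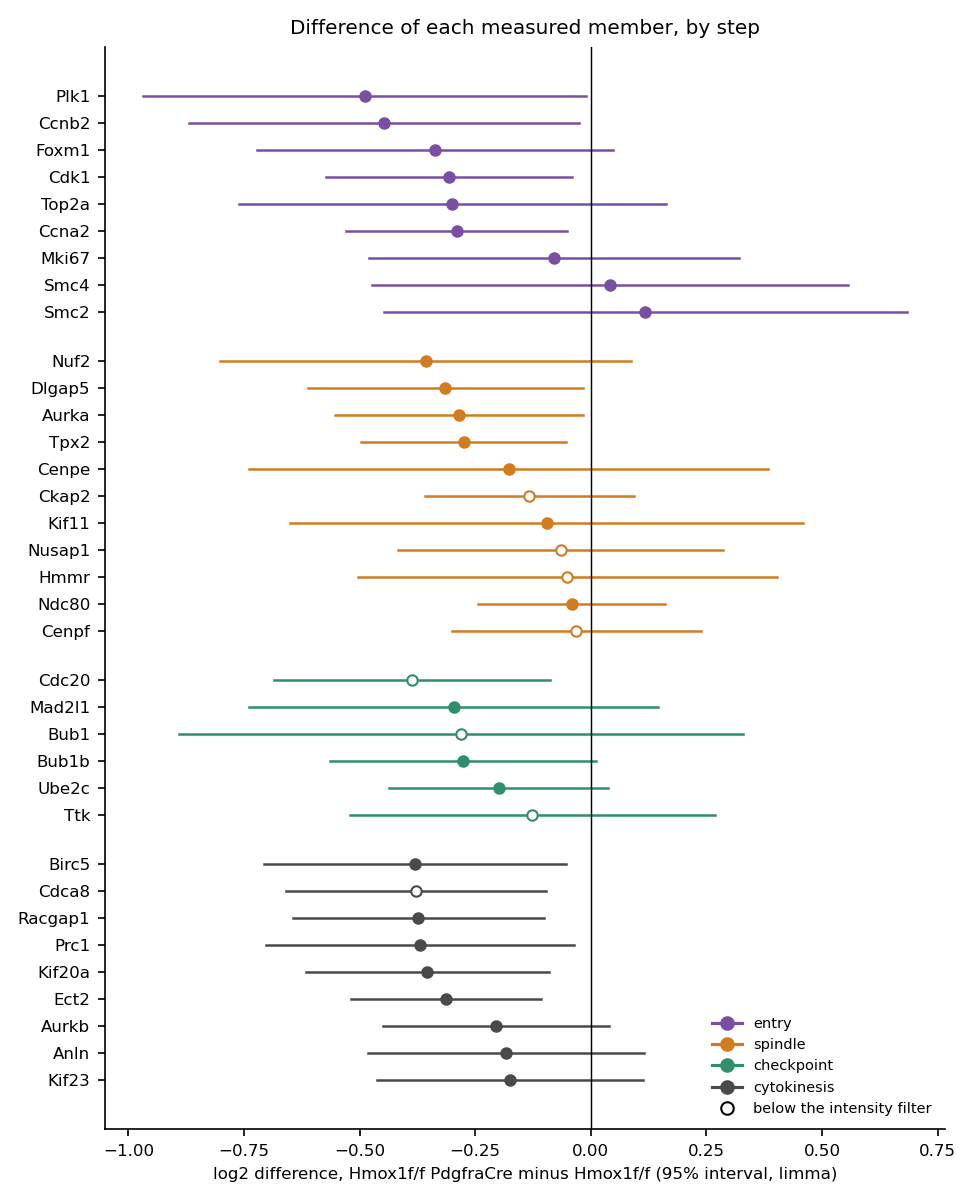
Log2 difference (horizontal axis, Hmox1f/f PdgfraCre minus Hmox1f/f, limma) of the 35 measured members in rows by step, with bars for the 95% confidence interval and open circles for members below the intensity filter. All but Smc2 and Smc4 lie left of 0, and the bars of 14 members end left of 0.

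Genes of entry into mitosis had a median difference of -0.30 over 9 tested members, 7 of them lower. Of the 9, 4 were lower at an unadjusted p under 0.05, against 12.8% of all genes tested. Lower without overlap were 5, against 21.2% of all genes tested. Ccna2, the A-type cyclin of S phase and early mitosis, had log2 intensities of 8.47, 8.78 and 8.71 on the Cre arrays (Hmox1f/f PdgfraCre 1 to 3), against 8.91, 8.97 and 8.95 on the controls (Hmox1f/f 4 to 6). All 3 Cre arrays lay below all 3 Hmox1f/f arrays, which were within a narrow range. The Ccna2 difference was -0.29 ± 0.10 (SE, adjusted p = 0.271), or 1.22-fold. Cdk1, the kinase that starts mitosis, had 7.42, 7.55 and 7.55 in Hmox1f/f PdgfraCre, against 7.92, 7.60 and 7.92 in Hmox1f/f. Its groups did not overlap either, but Hmox1f/f 5 lay close to the Cre arrays. The Cdk1 difference was -0.31 ± 0.11 (SE, adjusted p = 0.284).

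The B-type cyclin Ccnb2, a partner of Cdk1, had log2 intensities of 9.34, 9.54 and 9.31 in Hmox1f/f PdgfraCre, against 9.65, 9.65 and 10.23 in Hmox1f/f. Hmox1f/f 6 stood above the other 5 arrays, and the groups did not overlap. The Ccnb2 difference was -0.45 ± 0.17 (SE, adjusted p = 0.299), and it was -0.25 without Hmox1f/f 6. Plk1, the polo-like kinase that acts from mitotic entry to cytokinesis, and Foxm1, a transcription factor of late cell cycle genes, also did not overlap, with differences of -0.49 ± 0.20 (SE) and -0.34 ± 0.16 (SE). Without Hmox1f/f 6 these were -0.29 for Plk1 and -0.15 for Foxm1.

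The proliferation antigen Ki67, which coats mitotic chromosomes, is encoded by Mki67. Its log2 intensities were 8.75, 9.12 and 9.38 in Hmox1f/f PdgfraCre, against 9.30, 9.14 and 9.06 in Hmox1f/f. The Cre arrays held both the lowest and the highest value, so the genotypes overlapped. The Mki67 difference was -0.08 ± 0.17 (SE, adjusted p = 0.820), and its 95% confidence interval reached from -0.48 to 0.32. Top2a, the topoisomerase that untangles sister chromatids, had 7.74, 8.22 and 8.52 in Hmox1f/f PdgfraCre, against 8.53, 8.42 and 8.43 in Hmox1f/f. Of the Cre arrays, 1 and 2 were below all Hmox1f/f arrays and 3 was not. A second Top2a probeset was below the filter. The Top2a difference was -0.30 ± 0.19 (SE, adjusted p = 0.457), and -0.09 without Hmox1f/f PdgfraCre 1. The condensin ATPases Smc2 and Smc4, which compact chromosomes, were the members with higher values, by 0.12 ± 0.23 (SE) and 0.04 ± 0.21 (SE). Both had their highest value on Hmox1f/f PdgfraCre 3, and both differences turned negative without that array (-0.10 for Smc2 and -0.18 for Smc4). They were also slightly negative without Hmox1f/f 6 (-0.03 for Smc2 and -0.02 for Smc4).

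**Figure D2:**
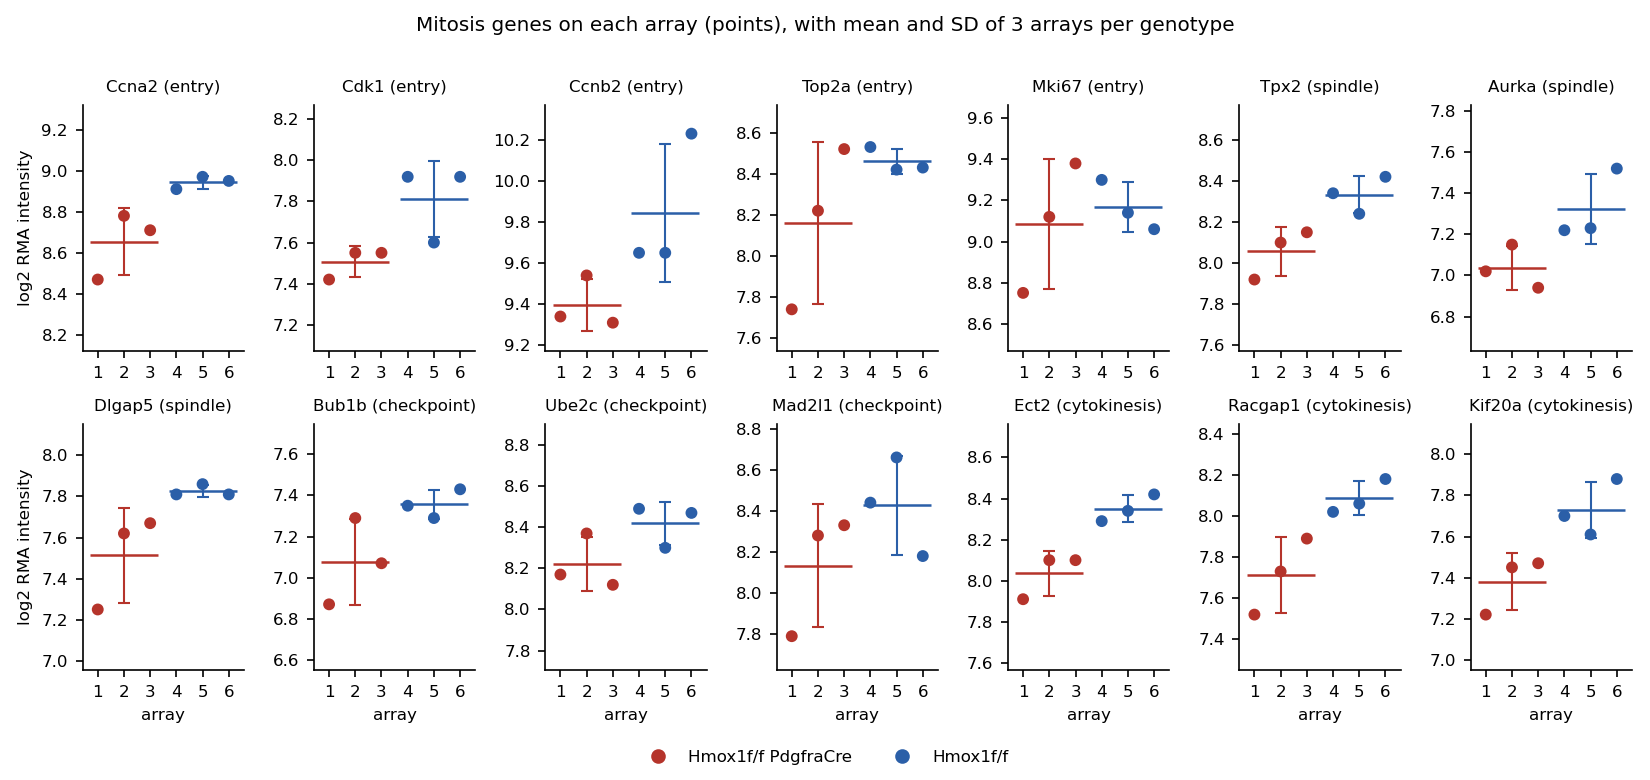
Log2 RMA intensity (vertical axis, same span in each panel) of 14 members on Hmox1f/f PdgfraCre arrays 1 to 3 (red) and Hmox1f/f arrays 4 to 6 (blue), with a line for the mean and a bar for the SD of 3 arrays. For Ccna2, Ect2 and Racgap1 every red point lies below every blue point, whereas for Mki67 the red points run from 8.75 to 9.38 around the blue ones.

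Spindle genes had a median difference of -0.27 over 7 tested members, all of them lower. At an unadjusted p under 0.05 were 3, which also did not overlap. The shares of all genes tested that were lower in these 2 ways were 12.8% and 21.2%. Tpx2, which activates Aurora A and nucleates spindle microtubules, had log2 intensities of 7.92, 8.10 and 8.15 in Hmox1f/f PdgfraCre, against 8.34, 8.24 and 8.42 in Hmox1f/f. The highest Cre array was below the lowest Hmox1f/f array. The Tpx2 difference was -0.27 ± 0.09 (SE, adjusted p = 0.268). Aurka, the Aurora A kinase of spindle poles, had 7.02, 7.15 and 6.94 in Hmox1f/f PdgfraCre, against 7.22, 7.23 and 7.52 in Hmox1f/f. Its groups were separated by less than the spread within either genotype. The Aurka difference was -0.29 ± 0.11 (SE, adjusted p = 0.299), and -0.19 without Hmox1f/f 6. Dlgap5, which stabilises microtubules that pull on kinetochores, had 7.25, 7.62 and 7.67 in Hmox1f/f PdgfraCre, against 7.81, 7.86 and 7.81 in Hmox1f/f. The Hmox1f/f arrays were close together, and Hmox1f/f PdgfraCre 1 was well below the other 2 Cre arrays. The Dlgap5 difference was -0.31 ± 0.12 (SE, adjusted p = 0.302), and -0.18 without Hmox1f/f PdgfraCre 1.

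Genes of the kinetochore and of the motors that move chromosomes overlapped between the genotypes. The difference was -0.36 ± 0.18 (SE) for Nuf2 and -0.04 ± 0.08 (SE) for Ndc80, whose products are partners in the complex that binds microtubules at the kinetochore. It was -0.18 ± 0.23 (SE) for Cenpe, the kinetochore motor, and -0.10 ± 0.23 (SE) for Kif11, the motor that pushes spindle poles apart. Each of these 4 had its lowest value on Hmox1f/f PdgfraCre 1, and without that array the difference was -0.18 for Nuf2, 0.0026 for Ndc80, 0.09 for Cenpe and 0.13 for Kif11. Ckap2, Nusap1, Hmmr and Cenpf, all microtubule or kinetochore proteins, did not pass the filter and differed by -0.13, -0.06, -0.05 and -0.03. With them, the median over the 11 measured spindle genes was -0.13.

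Checkpoint and anaphase genes had 3 tested members, all lower, with a median of -0.28. None was at an unadjusted p under 0.05, a threshold at which 12.8% of all genes tested were lower. Bub1b, the checkpoint protein BubR1, had log2 intensities of 6.87, 7.29 and 7.07 in Hmox1f/f PdgfraCre, against 7.35, 7.29 and 7.43 in Hmox1f/f. Hmox1f/f PdgfraCre 2 reached the level of Hmox1f/f 5, so the groups met. The Bub1b difference was -0.28 ± 0.12 (SE, adjusted p = 0.326). Ube2c, the enzyme that passes ubiquitin to the anaphase-promoting complex, had 8.17, 8.37 and 8.12 in Hmox1f/f PdgfraCre, against 8.49, 8.30 and 8.47 in Hmox1f/f. Again Hmox1f/f PdgfraCre 2 lay above Hmox1f/f 5. The Ube2c difference was -0.20 ± 0.10 (SE, adjusted p = 0.360). Mad2l1, the checkpoint protein that holds Cdc20 inactive, had 7.79, 8.28 and 8.33 in Hmox1f/f PdgfraCre, against 8.44, 8.66 and 8.18 in Hmox1f/f. The low Hmox1f/f 6 value overlapped the Cre arrays. The Mad2l1 difference was -0.30 ± 0.18 (SE, adjusted p = 0.448). Without Hmox1f/f PdgfraCre 1 the difference was -0.17 for Bub1b and -0.13 for Mad2l1, and without Hmox1f/f 5 it was -0.18 for Mad2l1.

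The other 3 checkpoint genes were below the filter. Cdc20, the activator of the anaphase-promoting complex, had 6.78, 6.75 and 6.75 in Hmox1f/f PdgfraCre, against 7.09, 6.95 and 7.41 in Hmox1f/f, so the groups did not overlap. The Cdc20 difference was -0.39 ± 0.12 (SE), and -0.26 without Hmox1f/f 6. The kinase genes Bub1 and Ttk overlapped, with differences of -0.28 ± 0.25 (SE) and -0.13 ± 0.16 (SE), and both were lowest on Hmox1f/f PdgfraCre 1. Without that array they differed by -0.04 and 0.02.

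Cytokinesis genes had the most negative median of the 4 steps, -0.33 over 8 tested members, all lower. Of the 8, 5 were at an unadjusted p under 0.05 and did not overlap. Among all genes tested, 12.8% were lower at that threshold and 21.2% lower without overlap. The difference between steps was not tested. Ect2, the exchange factor that activates RhoA at the cell equator, had log2 intensities of 7.91, 8.10 and 8.10 in Hmox1f/f PdgfraCre, against 8.29, 8.34 and 8.42 in Hmox1f/f. Its 6 values separated by genotype without overlap. The Ect2 difference was -0.31 ± 0.09 (SE, adjusted p = 0.266). Its 95% confidence interval reached from -0.52 to -0.11, and the difference lay between -0.35 and -0.25 when any 1 array was left out. Racgap1, the GTPase-activating subunit of centralspindlin, had 7.52, 7.73 and 7.89 in Hmox1f/f PdgfraCre, against 8.02, 8.06 and 8.18 in Hmox1f/f. No array of one genotype reached into the other. The Racgap1 difference was -0.37 ± 0.11 (SE, adjusted p = 0.266), or 1.30-fold. Kif20a, the kinesin that carries Aurora B to the central spindle, had 7.22, 7.45 and 7.47 in Hmox1f/f PdgfraCre, against 7.70, 7.61 and 7.88 in Hmox1f/f. These groups were separate as well. The Kif20a difference was -0.35 ± 0.11 (SE, adjusted p = 0.266).

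Prc1, which bundles the microtubules of the central spindle, differed by -0.37 ± 0.14 (SE) without overlap. The chromosomal passenger complex corrects attachments and moves to the central spindle. Its subunit survivin, gene Birc5, differed by -0.38 ± 0.14 (SE) and its subunit borealin, gene Cdca8, by -0.38 ± 0.12 (SE), both without overlap, Cdca8 being below the filter. The kinase of that complex, Aurkb, overlapped at -0.20 ± 0.10 (SE). The scaffold Anln of the contractile ring and the motor subunit Kif23 of centralspindlin also overlapped, with differences of -0.18 ± 0.12 (SE) and -0.17 ± 0.12 (SE). Racgap1 and Kif23, partners in 1 complex, thus differed in whether the genotypes overlapped, with 95% confidence intervals from -0.64 to -0.10 and from -0.46 to 0.11. Without Hmox1f/f PdgfraCre 1 the difference was -0.22 for Prc1, -0.13 for Aurkb, -0.10 for Anln and -0.08 for Kif23, and without Hmox1f/f 6 it was -0.25 for Birc5.

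**Figure D3:**
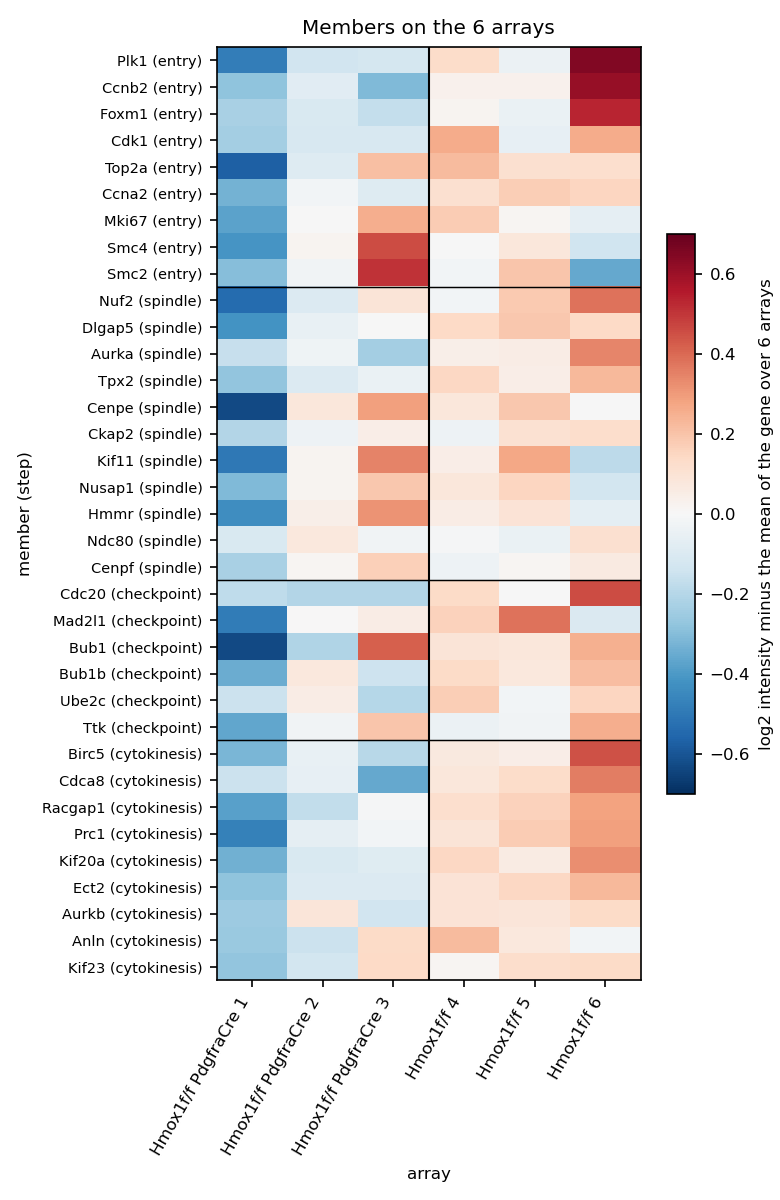
Log2 intensity minus the mean of the gene over 6 arrays (colour, blue below and red above the mean) for the 35 measured members in rows by step, with the Hmox1f/f PdgfraCre arrays in the left columns. Hmox1f/f PdgfraCre 1 is the lowest array for 29 members, Hmox1f/f 6 the highest for 18 and Hmox1f/f PdgfraCre 3 the highest for 10.

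The arrays of a genotype did not contribute evenly. Mean deviations from the gene means over the 35 members were -0.34, -0.05 and 0.04 on Hmox1f/f PdgfraCre 1 to 3, against 0.09, 0.09 and 0.18 on Hmox1f/f 4 to 6. Hmox1f/f PdgfraCre 1 was below all 3 Hmox1f/f arrays for 34 of 35 members, Hmox1f/f PdgfraCre 2 for 20 and Hmox1f/f PdgfraCre 3 for 18. Hmox1f/f PdgfraCre 3 was above all 3 Hmox1f/f arrays for 10 members, among them Mki67, Smc2, Smc4, Kif11 and Cenpe. By step, the deviation of Hmox1f/f PdgfraCre 3 was 0.07 for entry, 0.10 for spindle, 0.02 for checkpoint and -0.07 for cytokinesis genes. For checkpoint and cytokinesis genes all 3 Cre arrays were below the Hmox1f/f arrays (0.11, 0.08 and 0.20 for checkpoint, 0.10, 0.11 and 0.24 for cytokinesis), and for entry and spindle genes Hmox1f/f PdgfraCre 3 was not. Without Hmox1f/f PdgfraCre 1, 21 of 27 tested members were lower with a median of -0.18, and 3 were lower at an unadjusted p under 0.05, against 7.28% of all genes tested in that fit. That last count was 7 without Hmox1f/f 4 (7.91% of all genes) and 4 without Hmox1f/f 6 (7.40%). It was 0 when Hmox1f/f PdgfraCre 1 and Hmox1f/f 6 were both left out, where the median was -0.16 and 3.25% of all genes tested were lower at that threshold.

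Hmox1f/f 6 was over 0.3 above both other Hmox1f/f arrays for 5 members, Foxm1, Ccnb2, Plk1, Cdc20 and Birc5 (a distance set after the values were seen). The same array stood apart in transcripts of male germ cells. The mean deviation over 16 germ cell markers was -0.46, -0.96 and 0.02 in Hmox1f/f PdgfraCre, against -0.64, 0.12 and 1.92 in Hmox1f/f, and Prm1, a sperm protamine, was at 7.71, 7.31 and 8.85 in Hmox1f/f PdgfraCre, against 8.28, 9.26 and 11.30 in Hmox1f/f. Epididymal genes were high on more than 1 array. The mean deviation over 10 of them was 1.32, -0.65 and -0.40 in Hmox1f/f PdgfraCre, against -0.64, -0.39 and 0.76 in Hmox1f/f. Lcn5 was at 12.21 on Hmox1f/f PdgfraCre 1 and at 5.39 to 5.86 on the other 5 arrays, whereas Gpx5 was highest on Hmox1f/f 6, at 10.33. The part of such transcripts in the members' differences was not tested. Without Hmox1f/f 6, 26 of 27 members were lower, with a median of -0.24.

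Markers of several other cell types also differed in value between the genotypes. Of all 19938 measured genes 49.3% were lower with Cre. All 18 measured macrophage markers had lower values with Cre (median -0.41), and their mean levels were 10.49 to 10.95 in Hmox1f/f PdgfraCre and 11.17 to 11.21 in Hmox1f/f. The mean deviation of these markers was -0.29, 0.01 and -0.46 on Hmox1f/f PdgfraCre 1 to 3, against 0.26, 0.22 and 0.26 on Hmox1f/f 4 to 6. Like the members, they were thus below their mean on Hmox1f/f PdgfraCre 1 and above it on all Hmox1f/f arrays, and unlike the members they were lowest on Hmox1f/f PdgfraCre 3. Of 8 mast cell markers 8 were lower (median -0.83), of 14 precursor markers 8 were lower (median -0.05), and all 12 endothelial and all 14 adipocyte markers were higher (medians 0.35 and 0.18). Of 13 lymphocyte markers 6 were lower (median 0.04), of 10 mesothelial markers 8 (median -0.15) and of 3 red blood cell markers 2 (median -0.04). The part of these cells in the members' differences was not tested. Genes of mature adipocytes were measured at 10.16 to 13.73 over all arrays. Hmox1 was at 11.25, 11.36 and 10.74 in Hmox1f/f PdgfraCre, against 11.90, 11.63 and 12.32 in Hmox1f/f, a difference of -0.83 ± 0.23 (SE, adjusted p = 0.266). Its floxed exon was not looked at apart from the rest of the gene.

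**Figure D4:**
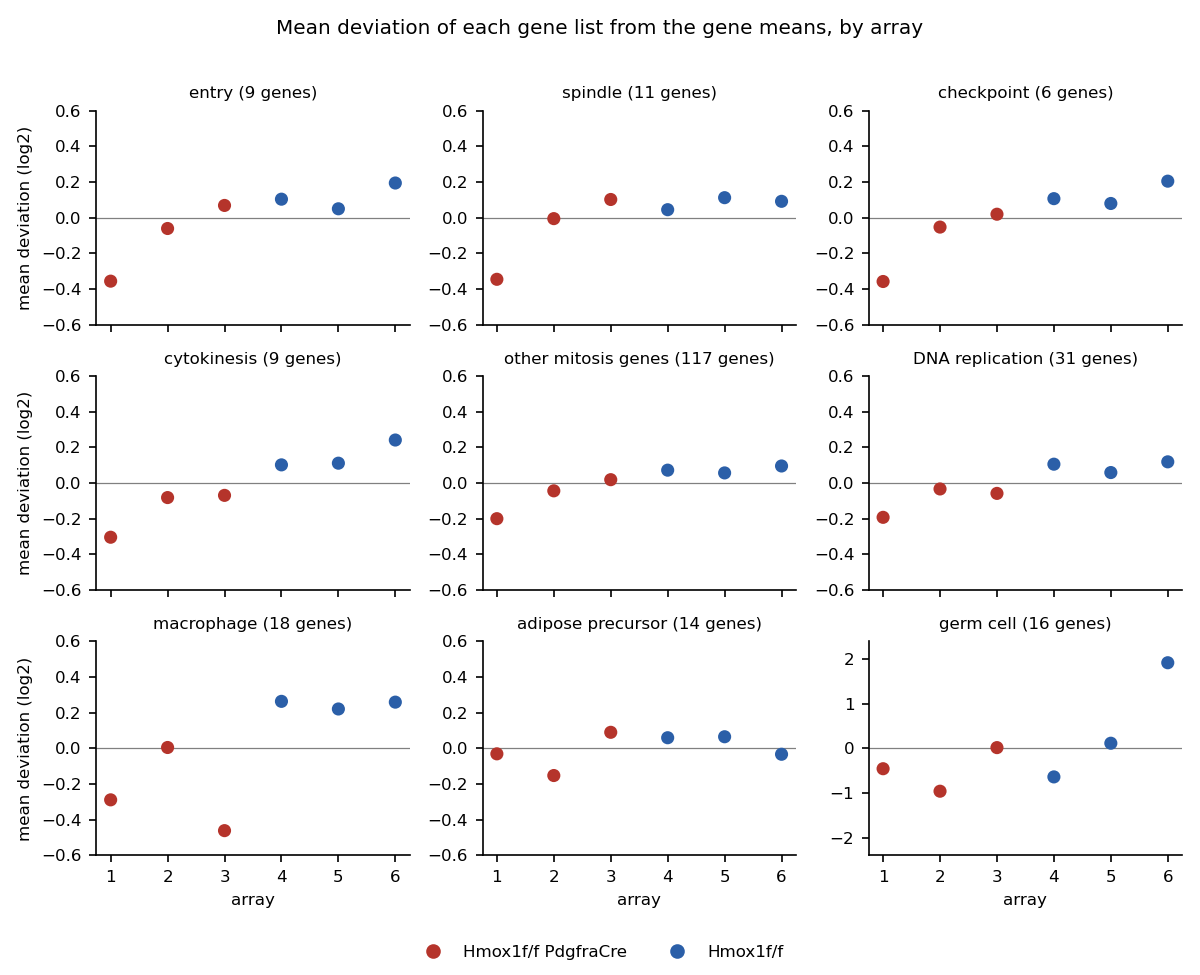
Mean log2 deviation from the gene means (vertical axis, wider for germ cell markers) on Hmox1f/f PdgfraCre arrays 1 to 3 (red) and Hmox1f/f arrays 4 to 6 (blue), for the 4 steps, other mitosis genes, DNA replication genes, and markers of macrophages, adipose precursors and germ cells. Hmox1f/f PdgfraCre 1 is lowest for each step, at -0.30 to -0.36, and Hmox1f/f 6 stands at 1.92 for germ cell markers.

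Other genes of mitosis outside the 36 were taken from a list of 128 symbols, of which 117 were measured and 75 tested. Of the 75, 59 were lower with a median of -0.13, against 57.4% of all genes tested and a median of -0.03. At an unadjusted p under 0.05, 15 were lower and 0 higher, against 12.8% of all genes tested lower and 3.03% higher. Among the 15, Ccnf and Melk passed the intensity filter on the Hmox1f/f arrays alone, which favours a lower value with Cre. With no filter, 22 of the 117 measured were lower at that threshold, against 7.50% of all genes. None passed the adjusted threshold in limma. Other entry genes had a median of -0.22 (16 of 18 lower), spindle and kinetochore genes -0.15 (23 of 28), checkpoint and anaphase genes -0.07 (12 of 21) and cytokinesis genes -0.09 (8 of 8). The smallest p was that of Mis18a, a factor that loads the centromere histone, at 7.71, 7.83 and 7.65 in Hmox1f/f PdgfraCre, against 8.11, 8.06 and 8.36 in Hmox1f/f. All Cre arrays lay below all Hmox1f/f arrays, and the difference was -0.45 ± 0.10 (SE, adjusted p = 0.266). The centromere histone gene Cenpa itself was at 8.03, 8.22 and 7.95 in Hmox1f/f PdgfraCre, against 8.41, 8.41 and 8.62 in Hmox1f/f, a difference of -0.41 ± 0.11 (SE). Cdca3, which promotes the destruction of the Cdk1 inhibitor Wee1, differed by -0.51 ± 0.17 (SE), and Cks2, a Cdk1-binding subunit, by -0.41 ± 0.14 (SE). These 4, named by smallest p, kept differences of -0.36, -0.34, -0.33 and -0.26 without Hmox1f/f 6 and did not overlap. Of the 75, 22 were lower without overlap and 2 higher, against 21.2% and 5.82% of all genes tested.

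Of 27 DNA replication genes tested 23 were lower, with a median of -0.23, against 57.4% lower and a median of -0.03 over all genes tested. At an unadjusted p under 0.05, 10 of these genes were lower and 0 higher, against 12.8% and 3.03% of all genes tested. Among the 10, Uhrf1 passed the intensity filter on the Hmox1f/f arrays alone. The replication clamp Pcna was at 10.75, 11.04 and 10.61 in Hmox1f/f PdgfraCre, against 11.22, 11.15 and 11.24 in Hmox1f/f. Chaf1b, Rrm1 and Rrm2, for chromatin assembly and nucleotide supply, differed by -0.40, -0.36 and -0.33 (adjusted p = 0.266 each in limma). Of 20 G1 cyclins, kinases and inhibitors 16 were lower, with a median of -0.15. Cdk6, Cdk2, Cdk4 and Ccnd1 differed by -0.32, -0.29, -0.29 and -0.29 (adjusted p from 0.266 to 0.275 in limma). Only these 4 were lower at an unadjusted p under 0.05, and 0 were higher, against 12.8% and 3.03% of all genes tested. The remaining 4 of the 20 genes were higher, among them the cyclin gene Ccnd2, by 0.16 ± 0.08 (SE, adjusted p = 0.350) without overlap. Of the 20, 1 was higher without overlap and 4 were lower, against 5.82% and 21.2% of all genes tested. The members that held TTTGAA in the promoter window had a median difference of -0.24 (22 genes) and those without it -0.29 (6 genes), given as a description with no test.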

How the data were processed

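Total RNA (200 ng per array) was labelled and hybridised to Affymetrix mouse gene arrays. The intensity values deposited by the authors, 8 to 20701 on a linear scale, are per the submitters' processing notes RMA values from Affymetrix Expression Console 1.1, already normalized between arrays; the probes' positions were not analysed here. Their log2 was taken. Of 35556 probesets, 21789 carried 1 symbol in the platform annotation and gave 19938 genes. Genotypes were compared by limma 3.58.1 under R 4.3.3, two-sided, with genotype alone in the model and lmFit and eBayes run over all genes. The intensity filter was then applied, and Benjamini-Hochberg adjustment covered the 11024 genes left. The model was tested on simulated data at an adjusted p under 0.05. It recovered 14 of 50 genes shifted by 0.5 on the log2 scale and 39 of 50 shifted by 1.0. Smaller shifts, such as the median difference of the members, were not simulated. Array correlations ran from 0.941 (Hmox1f/f PdgfraCre 3 with Hmox1f/f 6) to 0.993 (Hmox1f/f 4 with 5), and 0 columns were identical.

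The members and lists were chosen with earlier results of these data known. Every array's value is given for up to 3 tested members per step with the smallest p, and for Mki67 and Top2a. Of the other lists up to 4 genes are named by smallest p. Cdc20, Prm1, Lcn5, Gpx5 and Ccnd2 were added after their values were seen. Alternatives were a filter at 6 or none, a filter that also asks for high variation, quantile normalization, median centring, trended robust eBayes, arrayWeights, the mean of probesets, and leaving out arrays. Motifs were counted in RefSeq windows, a gene with several windows once. Figures were drawn with matplotlib 3.10.9.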

Additional observations from a re-analysis of the deposited data

How the results depend on the processing

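Under no setting did a gene pass an adjusted p of 0.05, and 382 of 398 member differences kept their direction. The other filters and trended robust eBayes leave the difference of a gene as it was. Part of the 398 could therefore not change direction. No paired analysis was possible because the genotypes share no replicate numbers. Quantile normalization moved the split of genes at an unadjusted p under 0.05 to 1010 lower and 610 higher, against 1406 and 334, with 24 of 26 tested members lower (median -0.28). With no filter 95 of 117 other mitosis genes were lower, against 49.3% of all 19938 genes. With the filter that also asks for high variation, 1117 genes had an unadjusted p under 0.05. Other mitosis genes then had a median of -0.29 (25 of 31 lower), and G1 genes -0.29. That filter takes variation over all 6 arrays, the genotype difference included, so it favours genes that differ. Of the 3351 genes it kept, 26.1% were lower at an unadjusted p under 0.05, against 12.8% in the main fit. With arrayWeights Smc2 and Smc4 turned to -0.21 each. Leaving out 1 array at a time gave 961 (without Hmox1f/f 6) to 2106 genes at an unadjusted p under 0.05. Lower at that threshold were 3 to 13 members and 5 (without Hmox1f/f PdgfraCre 1) to 15 of the 75 other mitosis genes. The share of all genes tested that were lower at it was 7.28% (without Hmox1f/f PdgfraCre 1) to 13.5%. The G1 median ran from -0.18 to -0.10. Differences then ran from -0.23 to 0.085 for Mki67, -0.29 to 0.13 for Kif11, -0.088 to 0.0058 for Ndc80, -0.36 to 0.094 for Cenpe, -0.10 to 0.30 for Smc2 and -0.18 to 0.26 for Smc4. Without both Hmox1f/f PdgfraCre 1 and Hmox1f/f 6, 448 genes, 0 members and 4 other mitosis genes were past that threshold, and 3.25% of all genes tested were lower at it. The medians were then -0.13 for entry, -0.08 for spindle, -0.15 for checkpoint, -0.18 for cytokinesis, -0.12 for DNA replication and -0.084 for G1 genes, and Mki67 (0.031), Kif11 (0.020), Ndc80 (0.050) and Cenpe (0.049) turned positive. The cause was not tested. RMA compresses differences of dim probesets, which limits the 8 members below the filter.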
